A study of Mus musculus with 11 samples.

Results

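The genes described here are 9 components and transcriptional outputs of fibroblast growth factor (FGF) signalling through the kinase ERK in mouse embryonic stem (ES) cells: the ligand Fgf4, the receptors Fgfr1 and Fgfr2, the feedback inhibitors Spry2, Spry4 and Dusp6, and the transcription factors Etv4, Etv5 and Egr1. They were taken by symbol from the deposited table of 24016 genes, and all 9 were found. All 9 were at 1 RPKM (reads per kilobase of transcript, scaled to the size of the library) or more in each of the 11 polyA RNA-seq libraries, so that all 9 are among the 14229 genes tested. The ES cells were of strain 129S4/SvJae and had been kept on irradiated mouse embryonic fibroblasts with serum and leukaemia inhibitory factor. WT was the J1 line. TKO had no functional Dnmt1, Dnmt3a or Dnmt3b, the enzymes that methylate DNA, and DKO lacked Dnmt3a and Dnmt3b but kept Dnmt1. In the add-back lines 1 enzyme had been returned to a knockout line and is named after a plus sign: Dnmt3a1, Dnmt3a2 or Dnmt3b1, each in TKO and in DKO. TKO and its add-back lines are called the TKO family (6 libraries), and DKO and its add-back lines the DKO family (4 libraries). Replicates (2 libraries) exist for TKO+Dnmt3a1 and TKO+Dnmt3a2, while 7 groups rest on 1 library. The labels name no promoter for the enzymes put back and do not say whether replicate libraries came from separate cultures, so that p-values measure only the spread between these libraries. Each genotype is a line, so that differences between lines cannot be told apart from differences between genotypes.

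Fgf4 is secreted by ES cells and binds FGF receptors on the same cells, which activate ERK through adaptors, Ras, Raf and MEK. Active ERK switches on genes of its own inhibitors, among them the Sprouty proteins and the ERK phosphatase Dusp6, together with the ETS factors Etv4 and Etv5 and the immediate early factor Egr1. In ES cells this pathway promotes exit from the naive state and, in the embryo, formation of primitive endoderm. The levels of its target genes are therefore in common use as a readout of pathway output, although RNA levels do not measure ERK activity.

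CpG sites are what DNA methyltransferases act on, and the promoters of these genes differ in how many they hold. RefSeq promoter windows (GRCm38.p6, 250 bases before to 50 bases after a transcript start) matched 5 of the 9 genes by symbol: Fgf4, Fgfr2, Spry2, Dusp6 and Etv5, the last with 2 windows. The 250 upstream bases are shown for 4 windows, with each CpG in capitals, because Spry2 and Dusp6 are feedback genes whose levels ran together, Etv5 separated the families, and Fgfr2 is the CpG-poor exception. They lie on the minus strand at chr14:105896820-105897069 (Spry2), on the plus strand at chr10:99262981-99263230 (Dusp6), and on the minus strand at chr16:22439571-22439820 (Etv5) and chr7:130266809-130267058 (Fgfr2).
Spry2: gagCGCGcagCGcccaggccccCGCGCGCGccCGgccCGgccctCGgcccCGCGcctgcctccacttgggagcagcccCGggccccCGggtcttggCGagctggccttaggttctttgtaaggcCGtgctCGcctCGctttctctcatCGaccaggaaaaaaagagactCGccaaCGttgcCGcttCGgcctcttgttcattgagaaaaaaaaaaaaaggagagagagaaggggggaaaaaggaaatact
Dusp6: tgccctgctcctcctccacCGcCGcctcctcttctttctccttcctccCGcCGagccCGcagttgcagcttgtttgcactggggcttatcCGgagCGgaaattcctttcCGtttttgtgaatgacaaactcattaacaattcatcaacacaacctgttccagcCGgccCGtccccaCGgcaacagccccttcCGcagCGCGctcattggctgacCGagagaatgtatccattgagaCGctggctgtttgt
Etv5: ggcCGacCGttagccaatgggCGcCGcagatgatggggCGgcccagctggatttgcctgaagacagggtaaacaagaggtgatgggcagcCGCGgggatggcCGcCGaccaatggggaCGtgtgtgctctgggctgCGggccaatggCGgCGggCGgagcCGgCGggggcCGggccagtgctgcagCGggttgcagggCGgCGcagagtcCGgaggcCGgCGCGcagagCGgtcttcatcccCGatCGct
Fgfr2: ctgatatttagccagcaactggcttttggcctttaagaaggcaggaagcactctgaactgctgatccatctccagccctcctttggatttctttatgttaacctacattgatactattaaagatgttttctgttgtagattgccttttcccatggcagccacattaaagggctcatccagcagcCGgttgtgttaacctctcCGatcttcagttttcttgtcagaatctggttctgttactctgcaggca
The ratio of observed to expected CpG over the 300 bases was 0.95 for Spry2, 0.80 for Dusp6, 0.94 for Etv5 (0.73 in its second window), 0.77 for Fgf4 and 0.28 for Fgfr2. Its median over all 32851 windows was 0.38, and 35.8% of them reached 0.6. Spry2 held 28 CpG sites in its window, Fgf4 28, Dusp6 19, Etv5 37 and Fgfr2 4, against a median of 7. No member window held the ETS motif CCGGAAG (8.86% of all windows did, on either strand), the EGR motif GCGTGGGCG (0.612%), the CRE motif TGACGTCA (1.79%), the AP-1 motif TGANTCA (7.81%) or a CArG box (1.63%). The SP1 motif GGGCGG was in the windows of Fgf4 (2 copies) and Etv5 (3 copies) and in 35.7% of all windows. These letters describe the windows only, and methylation was not measured in the files used here.

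Transcripts of the deleted enzymes were checked first. Dnmt1 was at 71.0 RPKM in WT, between 6.73 and 12.4 in the TKO family and between 55.9 and 74.5 in the DKO family. Dnmt3a had 22.7 RPKM in WT beside 4.24 (TKO) and 3.63 (DKO). Dnmt3b stood at 5.68 RPKM in DKO, below the 25.0 of WT, and at 45.3 in the library labelled TKO, where the total transcript is no check of that allele. Dnmt3a was above its parent in every library with Dnmt3a put back, 34.2 to 39.4 RPKM (TKO+Dnmt3a1), 11.1 and 21.8 (TKO+Dnmt3a2), 17.6 (DKO+Dnmt3a1) and 11.4 (DKO+Dnmt3a2), but it was also at 10.2 in TKO+Dnmt3b1 and 6.76 in DKO+Dnmt3b1, so that the 11.1 of the second TKO+Dnmt3a2 library is close to a line without that enzyme put back. Within each family Dnmt3b was highest with Dnmt3b1 put back, with 100 RPKM (TKO) and 29.6 (DKO). All 12 ES cell markers were at 1 RPKM or more in each library. The files hold no read counts; the spacing of the RPKM values implied between 21.7 and 32.8 M reads per library. At these depths the lowest member value, Fgfr2 in WT, rested on about 192 reads, and the other 8 genes on about 770 or more in each library, so that counting error was small beside the differences between libraries. The 2 libraries made from Dnmt3b1 lines stood apart in markers of other cells. The 30 listed fibroblast markers, led by Vim, summed to 4076 RPKM in TKO+Dnmt3b1, 3057 in DKO+Dnmt3b1 and 361 in DKO+Dnmt3a2. In the other 8 libraries they summed to between 739 and 1524. For the 18 listed macrophage markers, led by Lyz2, the sums in the same order were 333, 303, 12.8, and 42.8 to 118. Of these 18, 7 were at 0 in DKO+Dnmt3a2. In such bulk RNA a larger number of cells of another type and more RNA per cell cannot be told apart.

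Fgf4, the ligand, was lowest in the Dnmt3b1 lines. It was at 94.6 RPKM in WT, at 87.4 in TKO (76.8 and 104 with Dnmt3a1, 65.7 and 74.1 with Dnmt3a2, 51.3 with Dnmt3b1) and at 75.5 in DKO (57.1 with Dnmt3a1, 58.0 with Dnmt3a2, 43.1 with Dnmt3b1). Within each family the add-back line with Dnmt3b1 had the least, and all 3 DKO add-back libraries were below DKO. Fgfr1, the main FGF receptor of ES cells, was at 40.6 RPKM in WT, at 41.0 in TKO (32.7 and 26.0 with Dnmt3a1, 39.6 and 28.3 with Dnmt3a2, 72.0 with Dnmt3b1) and at 36.1 in DKO (40.0 with Dnmt3a1, 33.9 with Dnmt3a2, 62.1 with Dnmt3b1). The Dnmt3b1 libraries were the highest, and the other 9 lay between 26.0 and 41.0. Fgfr2, which in the embryo is associated with primitive endoderm, was the lowest member by level: 1.78 RPKM in WT, at 5.998 in TKO (3.13 and 2.45 with Dnmt3a1, 7.14 and 3.27 with Dnmt3a2, 6.92 with Dnmt3b1) and at 3.34 in DKO (6.33 with Dnmt3a1, 5.81 with Dnmt3a2, 4.75 with Dnmt3b1). WT was the lowest library, but the 2 TKO+Dnmt3a2 libraries differed 2.18-fold, the widest gap between replicates of any member.

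The feedback inhibitors were lowest in TKO or TKO+Dnmt3a1 and highest in the DKO add-back lines. Spry2, a Sprouty protein that dampens receptor signalling to Ras, was at 33.9 RPKM in WT, at 17.5 in TKO (30.4 and 29.02 with Dnmt3a1, 46.8 and 32.3 with Dnmt3a2, 56.3 with Dnmt3b1) and at 29.5 in DKO (80.9 with Dnmt3a1, 89.5 with Dnmt3a2, 71.0 with Dnmt3b1). In both families every add-back library was above its parent. Spry4, a second Sprouty protein, was at 35.6 RPKM in WT, at 13.6 in TKO (10.9 and 14.4 with Dnmt3a1, 24.9 and 16.3 with Dnmt3a2, 23.9 with Dnmt3b1) and at 23.0 in DKO (53.9 with Dnmt3a1, 61.8 with Dnmt3a2, 41.3 with Dnmt3b1). WT was above all 6 TKO family libraries and below all 3 DKO add-back libraries. Dusp6, which removes the activating phosphates from ERK, was at 23.2 RPKM in WT, at 16.8 in TKO (13.1 and 8.40 with Dnmt3a1, 23.1 and 18.5 with Dnmt3a2, 24.5 with Dnmt3b1) and at 16.1 in DKO (35.8 with Dnmt3a1, 33.7 with Dnmt3a2, 32.0 with Dnmt3b1). The 3 DKO add-back libraries were the highest and close to each other, and DKO itself was beside TKO.

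The transcription factors did not share this order. Etv5 was at 62.8 RPKM in WT, at 60.1 in TKO (57.3 and 53.0 with Dnmt3a1, 61.0 and 47.7 with Dnmt3a2, 53.1 with Dnmt3b1) and at 85.6 in DKO (91.4 with Dnmt3a1, 101 with Dnmt3a2, 73.9 with Dnmt3b1). All 4 DKO family libraries were above WT and above all 6 of the TKO family. Etv4, its relative, was at 56.8 RPKM in WT, at 76.6 in TKO (41.6 and 56.5 with Dnmt3a1, 56.2 and 60.1 with Dnmt3a2, 40.9 with Dnmt3b1) and at 27.7 in DKO (42.0 with Dnmt3a1, 42.0 with Dnmt3a2, 44.3 with Dnmt3b1). The parent lines were the extremes, TKO the highest of all libraries and DKO the lowest, with the add-back lines between them. Egr1, an immediate early zinc finger factor induced within minutes of ERK activation, was at 15.5 RPKM in WT, at 15.7 in TKO (14.3 and 10.5 with Dnmt3a1, 22.3 and 17.9 with Dnmt3a2, 35.6 with Dnmt3b1) and at 106 in DKO (19.0 with Dnmt3a1, 19.0 with Dnmt3a2, 48.8 with Dnmt3b1). DKO alone stood apart, followed by both Dnmt3b1 libraries, and the other 8 lay between 10.5 and 22.3. Between the 2 replicates of a line the members other than Fgfr2 differed by 1.05-fold (Spry2 in TKO+Dnmt3a1) to 1.56-fold (Dusp6 in TKO+Dnmt3a1), so that neighbouring libraries in these orders often differ by no more than replicates do.

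**Figure D1:**
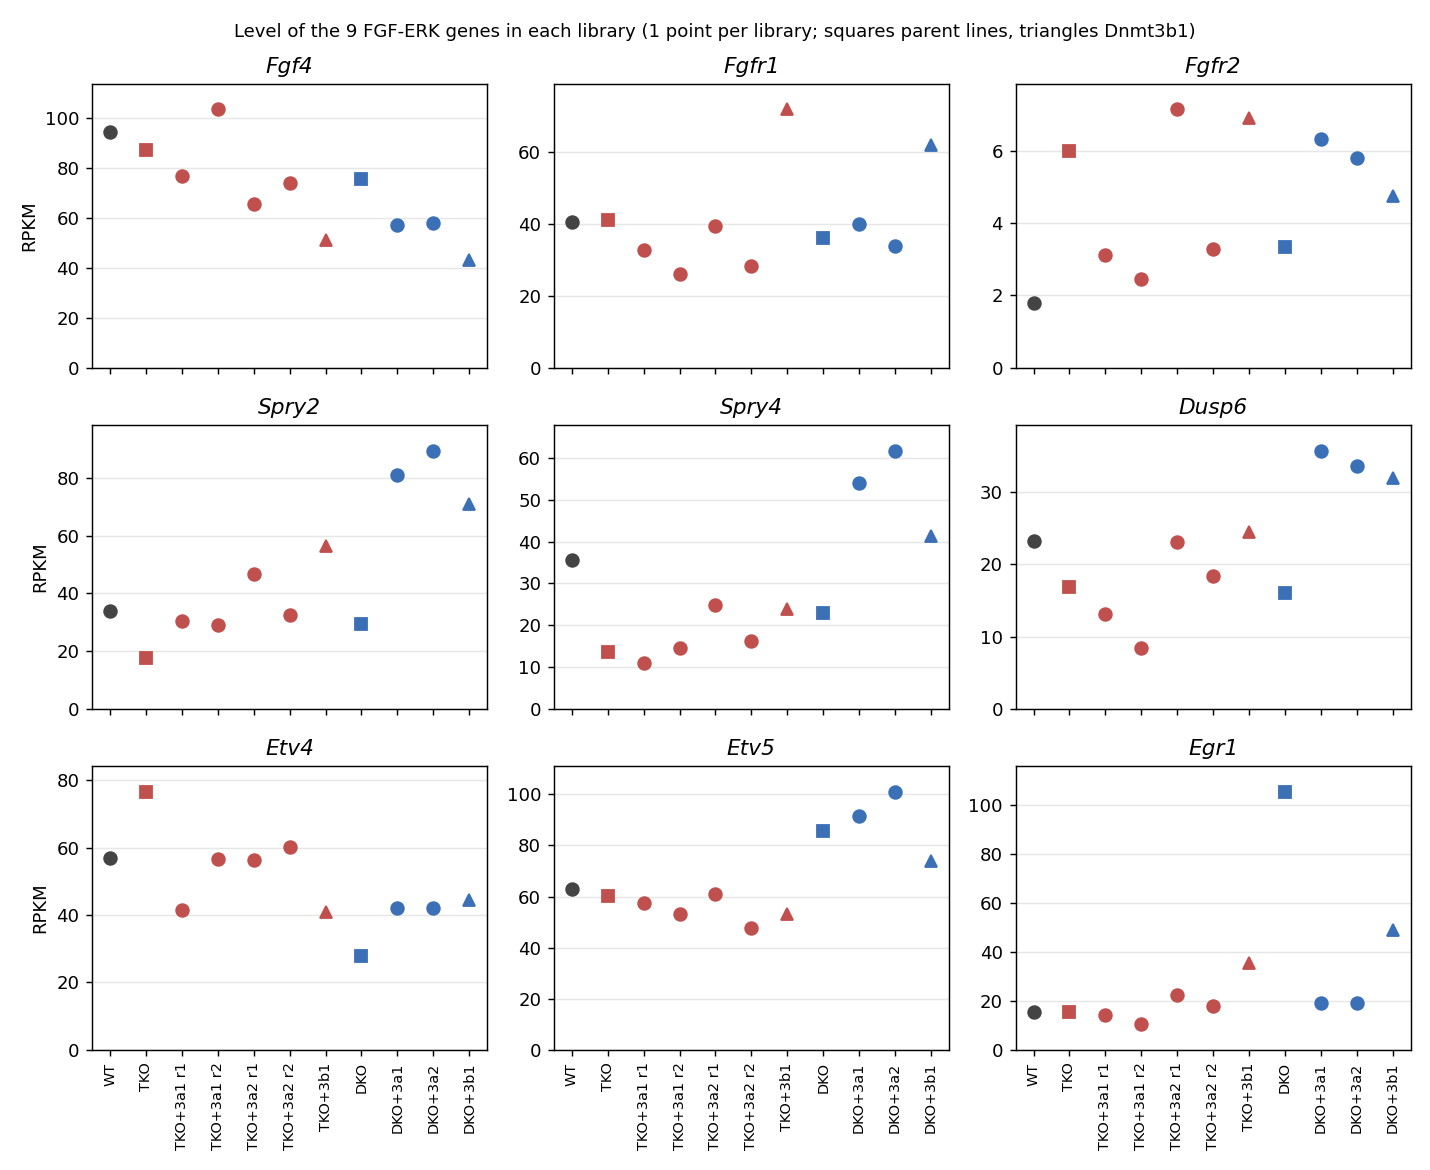
Level (RPKM, vertical axis, starting at 0) of each of the 9 genes in each of the 11 libraries, 1 point per library, with squares for the parent lines TKO and DKO and triangles for Dnmt3b1 lines. Spry2, Spry4 and Dusp6 are highest in the DKO add-back lines, Etv5 is higher in all 4 DKO family libraries than in all 6 of the TKO family, and Egr1 reaches 106 RPKM in DKO alone.

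Loss of all 3 enzymes was compared with WT using 1 library in each arm, with the spread taken from the replicated lines. Spry2 was at 17.5 RPKM in TKO against 33.9 in WT (log2 difference −0.94 ± 0.29, SE) and Spry4 at 13.6 against 35.6 (−1.36 ± 0.35). Fgfr2 was at 5.998 against 1.78 RPKM (1.51 ± 0.52), a 3.37-fold difference. Dusp6 was at 16.8 against 23.2 RPKM (−0.45 ± 0.35). For Fgf4, Fgfr1, Etv5 and Egr1 the log2 difference was smaller than its standard error. In limma 0 of the 9 genes passed an adjusted p of 0.05, where 0.344% of all tested genes did, and the lowest adjusted p was 0.176, for Spry4. Unadjusted p-values were under 0.05 for 3 genes, Spry2, Spry4 and Fgfr2, and for 2447 of the 14229 genes tested. The median of all tested genes was itself 0.13 higher in TKO on the log2 scale. Etv4, on chromosome 11, was at 0.43 ± 0.26, but the 1213 tested genes of that chromosome had a median of 0.52, and with chromosome medians removed Etv4 came to −0.08. Etv5 lies on chromosome 16, whose 422 genes had a median of 0.49. Beside these values, 13 of 13 primitive endoderm markers tested, led by Lamb1, were higher in TKO than in WT, 2 of them called. The 14 listed summed to 200 RPKM against 55.2. Trophoblast markers were higher for 9 of 9, with 0 called (median 0.70). The part of these markers in the Fgfr2 value was not tested.

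In DKO against WT, Egr1 stood out: 106 against 15.5 RPKM, 6.79-fold, with a log2 difference of 2.72 ± 0.29. Etv4 was at 27.7 against 56.8 RPKM (−1.02 ± 0.26). Differences of Fgfr1 and Spry2 were within 1 standard error, and the other 5 genes ranged from −0.62 (Spry4) to 0.75 (Fgfr2). In limma 0 of the 9 passed, as did 0 of all tested genes (0.0%), of which 1181 had an unadjusted p under 0.05. The adjusted p was 0.163 for Egr1 and 0.403 for Etv4, the members with an unadjusted p under 0.05. This comparison and the one of TKO share the WT library. Other immediate early genes gave the values beside Egr1: Fos, a partner in the AP-1 factor, was at 20.5 RPKM in DKO and at 1.72 to 5.20 in the other 10 libraries (log2 difference from WT 2.51 ± 0.32, adjusted p = 0.179 in limma). Btg2 was at 27.9 RPKM in DKO and at 9.58 to 19.3 elsewhere, and the phosphatase gene Dusp1 at 60.4 and at 17.3 to 44.0; both were picked out after their values were seen. Myc, the list's lowest difference from WT, was at −0.38 ± 0.64. Of 19 immediate early genes tested, 16 were higher in DKO than in WT with 0 called, a median of 0.74 beside 0.04 for all tested genes. In the same comparison 27 of 29 fibroblast markers (median 0.83), 15 of 17 macrophage markers (median 1.07) and 10 of 13 primitive endoderm markers (median 0.71) were higher in DKO, 0 of them called, and their part in the Egr1 and immediate early values was not tested.

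Putting any of the 3 enzymes back was compared with the parent line over both families. Spry2 rose: 54.5 ± 23.8 RPKM (SD, n = 8) in the add-back libraries against 23.5 ± 8.47 (SD, n = 2) in TKO and DKO, with all 8 above the parents' mean and each above its own parent. Such separation of the add-back libraries from their parent, in either direction, held for 36.4% of all tested genes in TKO and 69.5% in DKO. The log2 difference was 1.27 ± 0.22, and Spry2 was the 1 member called (limma, adjusted p = 0.0363), where 3.93% of all tested genes were called and 1.12% as higher. In TKO the ratio to the parent was 1.74 and 1.66 with Dnmt3a1, 2.68 and 1.85 with Dnmt3a2 and 3.22 with Dnmt3b1, and in DKO it was 2.75, 3.04 and 2.41. The call rests on the full set: it was kept without TKO or without the second TKO+Dnmt3a2 library, and lost without any 1 of the other 8, where the adjusted p ran from 0.0549 (without the first TKO+Dnmt3a2 library) to 0.168 (without DKO). It was also lost with each line counted once (1.30, adjusted p = 0.0565), with 9 group means (adjusted p = 0.0804) and with no low-value filter (adjusted p = 0.0592), all in limma. Without both Dnmt3b1 libraries the difference was 1.20 with an adjusted p of 0.106 in limma. Spry4 (0.73 ± 0.28) and Dusp6 (0.50 ± 0.32) did not pass, and neither did Fgf4 (−0.43 ± 0.14). Egr1 was at −0.74 ± 0.44, and at 0.40 without DKO.

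The add-backs were also taken by family, in comparisons added after the values were seen. In DKO, 3 libraries against 1, Spry2 was at 80.4 ± 9.26 RPKM (SD, n = 3) against 29.5, Spry4 at 52.4 ± 10.3 against 23.0 and Dusp6 at 33.8 ± 1.90 against 16.1. These are 2.73-fold, 2.28-fold and 2.11-fold, and log2 differences of 1.43 ± 0.24, 1.15 ± 0.29 and 1.05 ± 0.28. Egr1 was at 28.9 ± 17.2 RPKM against 106 (−1.997 ± 0.24), and Etv4 at 42.8 ± 1.33 against 27.7 (0.62 ± 0.21). With adjusted p-values of 0.0778 for Egr1 and 0.0844 to 0.164 for the other 4, 0 of the 9 passed in limma, as did 0.0% of all tested genes, of which 3518 had an unadjusted p under 0.05. The 3 add-back libraries did not overlap the parent in 7 of the 9 genes and in 69.5% of all tested genes. Fgf4 (−0.53 ± 0.22), Fgfr2 (0.67 ± 0.42) and Fgfr1 (0.28 ± 0.25) did not pass either, and Etv5 differed by less than 1 standard error. In TKO, 5 libraries against 1, Spry2 was at 39.0 ± 12.04 RPKM (SD, n = 5) against 17.5 (1.18 ± 0.23, adjusted p = 0.329 in limma) and Etv4 at 51.0 ± 9.10 against 76.6 (−0.65 ± 0.20, adjusted p = 0.342). For Dusp6, Etv5, Fgfr1 and Fgfr2 the difference was within 1 standard error, and 0 members and 0.0% of all tested genes were called, with 1848 at an unadjusted p under 0.05. The add-back libraries did not overlap TKO in 2 of the 9 genes, Spry2 and Etv4, and in 36.4% of all tested genes.

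The test of the difference itself, the DKO add-back change minus the TKO add-back change, gave −2.39 ± 0.33 for Egr1, 1.27 ± 0.30 for Etv4 and 0.99 ± 0.39 for Dusp6 on the log2 scale. Spry2 came to 0.25 ± 0.33, within its standard error, so that its difference from the parent was not shown to depend on the family. In limma 0 of the 9 genes and 0.0% of all tested genes passed, with adjusted p-values of 0.351 for Egr1 and Etv4 and 0.474 for Dusp6. Unadjusted, 1486 of all tested genes and these 3 members had a p under 0.05. Each of these differences uses TKO and DKO as 1 library each. Markers moved here too: fibroblast markers were lower in the DKO add-backs than in DKO for 25 of 29 genes (median −0.46) and higher in the TKO add-backs than in TKO for 27 of 29 (median 0.84), and their part in the Egr1 and Etv4 values was not tested. Without both Dnmt3b1 libraries Spry2 in the DKO add-backs was at 1.51 and Spry4 at 1.31, no smaller than with them.

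**Figure D2:**
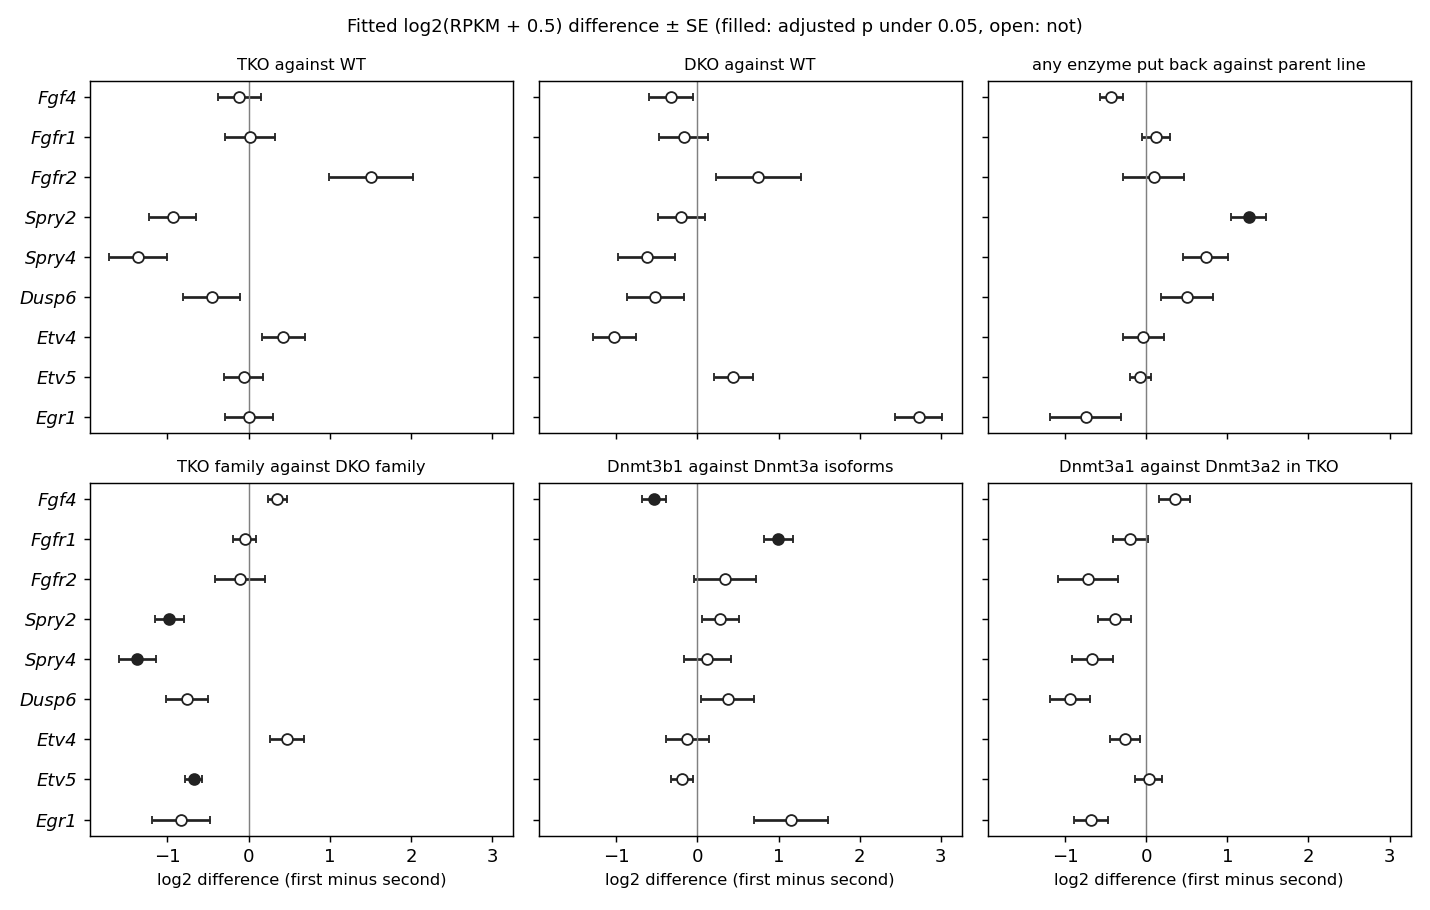
Fitted difference in log2(RPKM + 0.5) with its standard error (horizontal axis, first group minus second) for the 9 genes in 6 comparisons, filled where the adjusted p was under 0.05. Filled points are Spry2 for any enzyme put back, Spry2, Spry4 and Etv5 between the families, and Fgfr1 and Fgf4 for Dnmt3b1 against Dnmt3a.

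The families differ in whether Dnmt1 is present, and between them 3 of the 9 genes were called, all lower in the TKO family. Spry4 averaged 17.3 ± 5.75 RPKM (SD, n = 6) in the TKO family and 45.0 ± 16.9 (SD, n = 4) in the DKO family, with a log2 difference of −1.37 ± 0.23 (limma, adjusted p = 0.00676). Spry2 averaged 35.4 ± 13.9 against 67.7 ± 26.6 RPKM, and the difference was −0.98 ± 0.18 (adjusted p = 0.00856). Etv5 averaged 55.4 ± 5.05 against 88.0 ± 11.4 RPKM, and the difference was −0.67 ± 0.11 (adjusted p = 0.00541). Of all tested genes 21.0% were called, 6.66% as lower in the TKO family, so that a call is common in this comparison; the median of all tested genes was 0.11 higher in the TKO family. Etv5 was the 1 member whose families did not overlap, which held, in this direction, for 3.3% of all tested genes. Spry4 and Etv5 stayed called without any 1 library and without both Dnmt3b1 libraries, where they came to −1.53 and −0.73. Spry2 lost its call without DKO+Dnmt3a2 (−0.89, adjusted p = 0.0583 in limma) and kept it without any 1 of the other 9 and without both Dnmt3b1 libraries (−1.15). Leaving out TKO or DKO gives the same estimate of a family difference, as does leaving out 1 or both Dnmt3b1 libraries, so that these are not separate checks.

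Dusp6 averaged 17.4 ± 6.07 RPKM in the TKO family and 29.4 ± 9.02 in the DKO family (−0.76 ± 0.26, adjusted p = 0.0676 in limma). It passed without TKO or without DKO (−0.98 in both, adjusted p of 0.0323 and 0.0324 in limma). Both of these fits take the difference from the same add-back libraries, so that they are not separate checks. Dusp6 also passed with median ratio scaling (−0.85, adjusted p = 0.0446 in limma). Fgf4 (0.36 ± 0.12), Etv4 (0.48 ± 0.21) and Egr1 (−0.83 ± 0.36) did not pass, with adjusted p-values of 0.0585, 0.132 and 0.128 in limma. Egr1 passed with 9 group means (−0.93, adjusted p = 0.0201 in limma), but over the alternatives it ran from −1.19 to −0.32, with adjusted p-values up to 0.205. In the DKO family Egr1 was at 106 RPKM in DKO and at 19.0 to 48.8 in the add-back lines. Fgfr1 and Fgfr2 differed by less than 1 standard error. With chromosome medians removed Etv5 was at −0.82 and stayed called. Etv4 lies on chromosome 11, whose 1213 tested genes had a median of 0.36 between the families. Over the alternatives the Etv4 difference ran from 0.12 to 0.64. DKO+Dnmt3a2, the library with the most Spry2, Spry4 and Etv5, had the lowest sums of fibroblast and macrophage markers. Primitive endoderm markers were higher in the TKO family for 13 of 13 genes, 11 of them called (median 0.95). Trophoblast markers, led by Tfap2c, were higher for 9 of 9, 5 of them called (median 1.20), and fibroblast markers for 28 of 29, with 1 called (median 0.50). The part of these markers in the family differences was not tested.

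Dnmt3b1 was compared with the Dnmt3a isoforms, 2 libraries against 6, with family in the model. Fgfr1 rose, 67.0 ± 7.02 RPKM (SD, n = 2) against 33.4 ± 5.72 (SD, n = 6), with a log2 difference of 1.00 ± 0.18 (limma, adjusted p = 0.00861). Fgf4 fell, 47.2 ± 5.82 against 72.5 ± 17.2 RPKM, with a difference of −0.53 ± 0.15 (adjusted p = 0.0359). These were the 2 members called, where 20.7% of all tested genes were, 13.5% as higher and 7.17% as lower. Egr1 was at 42.2 ± 9.34 RPKM against 17.2 ± 4.16 (1.16 ± 0.45, adjusted p = 0.102 in limma), and passed when TKO or DKO was left out (1.24 in both, adjusted p of 0.00616 and 0.00639). Both of these fits take the difference from the same add-back libraries, so that they are not separate checks. The groups did not overlap for Fgfr1, Fgf4 and Egr1, and for 34.6% of all tested genes. Spry2, Dusp6 and Etv5 did not pass (0.29 ± 0.22, 0.37 ± 0.33 and −0.19 ± 0.13), and Etv4, Fgfr2 and Spry4 differed by less than 1 standard error.

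These same 2 libraries had the highest sums of fibroblast and macrophage markers. All 29 fibroblast markers were called higher (median log2 difference 2.48), as were 15 of 17 macrophage markers (median 2.78), while 12 of 12 ES cell markers were lower, 5 of them called (median −0.36). The part of these markers in the Fgfr1, Fgf4 and Egr1 values was not tested. Neither call was kept when TKO+Dnmt3b1 (Fgfr1 0.82, adjusted p = 0.183; Fgf4 −0.46, adjusted p = 0.362, in limma) or DKO+Dnmt3b1 (1.15, adjusted p = 0.0699; −0.59, adjusted p = 0.143) was left out. Fgf4 also lost its call without the first TKO+Dnmt3a1 library (−0.56, adjusted p = 0.0516), the second TKO+Dnmt3a2 library (−0.52, adjusted p = 0.0604) or DKO+Dnmt3a2 (−0.50, adjusted p = 0.084), with no low-value filter (adjusted p = 0.052) and with 9 group means (−0.51, adjusted p = 0.0864), where Egr1 was called in its place (adjusted p = 0.0122). Within a family Fgfr1 was at 1.19 in TKO (adjusted p = 0.06) and 0.74 in DKO (adjusted p = 0.24), and Fgf4 at −0.61 and −0.41, with no member called in either.

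**Figure D3:**
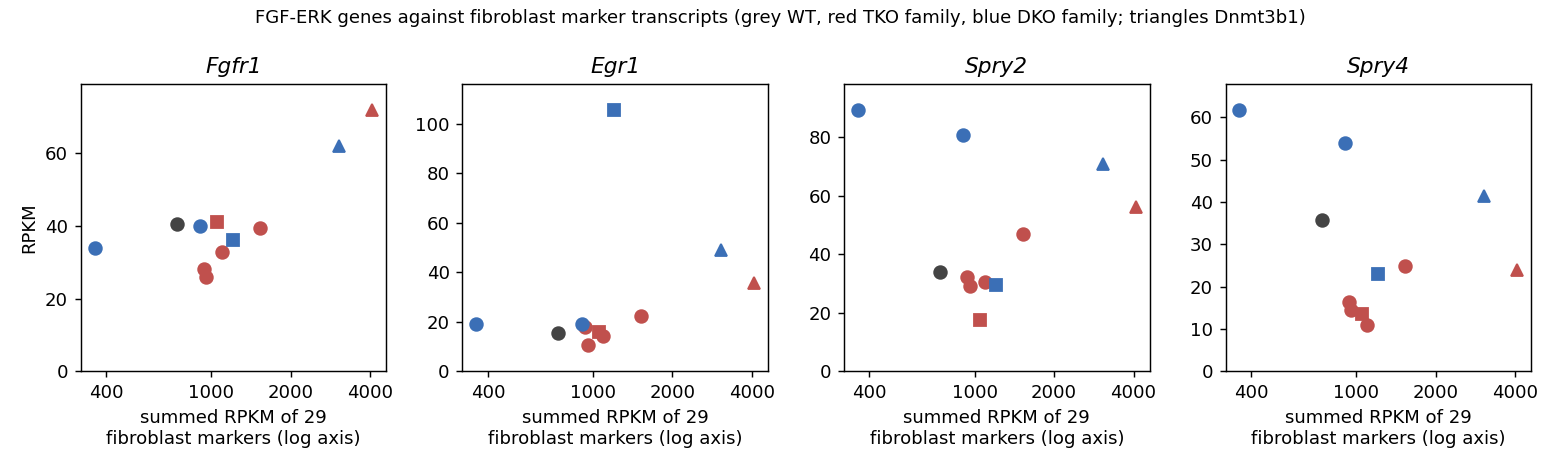
RPKM of Fgfr1, Egr1, Spry2 and Spry4 (vertical axes) against the summed RPKM of the 30 listed fibroblast markers (horizontal log axis, whose label counts the 29 tested). Each library is 1 point, grey for WT, red for the TKO family, blue for the DKO family, with triangles for Dnmt3b1 lines and squares for parent lines. Both Dnmt3b1 libraries are high on both axes for Fgfr1, DKO is high for Egr1 at a marker sum of 1207, and the highest Spry2 and Spry4 are in DKO+Dnmt3a2 at 361.

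Dnmt3a1 and Dnmt3a2, the long and the short isoform, were compared in TKO with 2 libraries each. Dusp6 was at 10.8 ± 3.33 RPKM (SD, n = 2) with Dnmt3a1 and 20.8 ± 3.29 (SD, n = 2) with Dnmt3a2 (−0.94 ± 0.25), Egr1 at 12.4 ± 2.71 and 20.1 ± 3.16 (−0.68 ± 0.21) and Spry4 at 12.7 ± 2.50 and 20.6 ± 6.08 (−0.66 ± 0.25). These 3 had unadjusted p-values under 0.05, as did 611 of the 14229 genes tested. After adjustment 0 of the 9 passed (limma, adjusted p of 0.903 or more), where 0.00703% of all tested genes did. Spry2 (−0.38 ± 0.20), Fgfr2 (−0.71 ± 0.37), Etv4 (−0.26 ± 0.19) and Fgf4 (0.35 ± 0.19) did not pass either, and Fgfr1 and Etv5 differed by less than 1 standard error.

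Over the 11 libraries the highest correlations among the 9 genes were those between the 3 feedback inhibitors. Pearson's r of log2(RPKM + 0.5) was 0.86 between Spry4 and Dusp6, 0.85 between Spry2 and Spry4 and 0.79 between Spry2 and Dusp6, and 0.86, 0.86 and 0.76 over the 9 libraries other than Dnmt3b1. Etv5 and Spry4 had an r of 0.77 over the 11 libraries and of 0.80 over the 9, there above Spry2 and Dusp6, while Etv4 and Etv5 had an r of −0.55 and Fgf4 and Spry2 an r of −0.80. These are descriptions over libraries that share parent lines and replicates. Of all other tested genes, the pair most like each member over the 11 libraries were Yy2 (r = 0.98) and Zfp445 (0.97) for Spry2, Rbmxl1 (0.97) and Klf12 (0.96) for Spry4, Cdca4 (0.96) and Fam49a (0.95) for Dusp6, and Sae1 and Cep120 (both 0.96) for Etv5. For Fgf4 they were 4930452B06Rik and Etfa (both 0.98), for Fgfr1 Ifit2 and Palld (both 0.97), and for Fgfr2 Pirt (0.95) and Ece2 (0.93). For Etv4 they were Bloc1s5 and Ska2 (both 0.93), and for Egr1 Id4 (0.95) and Tm9sf4 (0.94). Each pair was picked as the highest among all other tested genes, and its r is a description of these libraries.

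The rest of the pathway was read from lists of ligands (9 of 10 tested), receptors and coreceptors (4 of 5), adaptors and Ras activators (8 of 8), cascade kinases and Ras proteins (11 of 11 found), other feedback inhibitors (13 of 14), ETS and ternary complex factors (7 of 7) and immediate early genes (19 of 20). In the cascade itself, between the families 2 of 11 were called, Map2k1 (0.45 ± 0.11) and the scaffold gene Ksr1 (0.51 ± 0.15), both higher in the TKO family, where 21.0% of all tested genes were called, and 0 of 11 in any of the other comparisons. Ksr1 kept its call in 6 of 20 alternative fits. In TKO against WT the 1 pathway gene called was Fgf15, a target of FGF and other signals in the embryo, at 1.22 against 8.66 RPKM (−2.41 ± 0.27, limma, adjusted p = 0.0485). This call was kept in 2 of 12 alternative fits and lost in the others, among them each with 1 replicate left out (adjusted p from 0.0275 to 0.150 over the 12). In DKO against WT, in Dnmt3a1 against Dnmt3a2 and in the add-backs by family none was called. For any enzyme put back 1 was called, Fgfrl1, a receptor relative without a kinase domain: it was at 4.92 to 8.65 RPKM in the add-back libraries against 13.5 in TKO and 11.3 in DKO (−0.80 ± 0.17, limma, adjusted p = 0.0452). It was kept in 7 of 20 alternative fits and lost in the others, among them those without TKO, without DKO and with 9 group means (adjusted p from 0.0392 to 0.189 over the 20).

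Between the families, where 6.66% of all tested genes were called as lower in the TKO family and 14.4% as higher, further genes of the same kinds as the members were called. Among ligands, Fgf15 (−2.03 ± 0.24), Fgf17 (−1.67 ± 0.22) and Fgf1 (−1.24 ± 0.17) were lower in the TKO family and Fgf3 (0.73 ± 0.22) higher, the last called in only 3 of 20 alternative fits. Fgf15 lay between 1.22 and 3.36 RPKM in the TKO family and between 8.05 and 11.1 in the DKO family, and WT was at 8.66. Among receptors, Fgfr3 (1.82 ± 0.27) and the coreceptor Klb (1.20 ± 0.18) were higher in the TKO family, Fgfr3 at 1.58 to 7.61 RPKM against 0.35 to 0.98. Klb was at 0.81 to 1.44 RPKM in the TKO family and at 0.10 to 0.40 in the DKO family. Fgf1 was at 0.22 to 0.73 RPKM in the TKO family and at 1.43 to 2.53 in the DKO family. Between the families Fgfr3, Klb and Fgf1 reached 1 RPKM only on the side called higher, so that these calls are not independent of the filter. Of 13 other feedback inhibitors 3 were lower in the TKO family, Spred1 (−1.02 ± 0.21), Il17rd (−0.74 ± 0.12) and Spry1 (−0.53 ± 0.12), and 2 higher, the ERK phosphatase Dusp9 (0.72 ± 0.10) and the ubiquitin ligase Cbl (0.59 ± 0.11). Their median was −0.10, beside 0.11 for all tested genes and −0.67 for the 9 members. Of the adaptors Gab1 (−0.72 ± 0.15) was lower and Grb2 (0.32 ± 0.10) higher, but with chromosome medians removed Grb2 came to −0.03. Of the immediate early genes Ier2 (−0.66 ± 0.16) was lower and Ier3 (0.83 ± 0.21) and Atf3 (1.00 ± 0.21) higher. Of the 7 ETS and ternary complex factors 0 were called.

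In Dnmt3b1 against Dnmt3a, where 13.5% of all tested genes were called as higher and 7.17% as lower, 8 of 19 immediate early genes were called, all higher: Fosl1 (2.74 ± 0.52), Jun (2.45 ± 0.42), Phlda1 (2.06 ± 0.33), Ctgf (2.03 ± 0.29), Atf3 (1.88 ± 0.26), Cyr61 (1.63 ± 0.37), Klf6 (1.45 ± 0.20) and Egr2 (1.18 ± 0.34). Of feedback inhibitors, Spred3 (1.77 ± 0.41), Dusp4 (1.68 ± 0.26), Dusp5 (1.35 ± 0.22) and Rasa1 (1.17 ± 0.15) were higher and Dusp9 (−0.68 ± 0.12) lower. The ligands Fgf7 (2.80 ± 0.51), Fgf10 (1.68 ± 0.28) and Fgf2 (1.40 ± 0.27), the adaptor phosphatase gene Ptpn11 (0.54 ± 0.14), and the factors Ets1 (1.48 ± 0.45) and Elk3 (1.41 ± 0.25) were higher as well. Fgf2 was at 0.66 and 1.84 RPKM in the Dnmt3b1 libraries and at 0 to 0.44 in the others. It was tested only because a Dnmt3b1 library reached 1 RPKM, so that its call is not independent of the filter. The calls of Ets1 and Egr2 were kept in 6 and 10 of 21 alternative fits. Fgf7, a ligand made by mesenchymal cells, was at 11.4 and 8.18 RPKM in the Dnmt3b1 libraries and at 0.12 to 3.12 in the others. The fibroblast and macrophage markers of these 2 libraries are given above, and their part in these values was not tested.

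**Figure D4:**
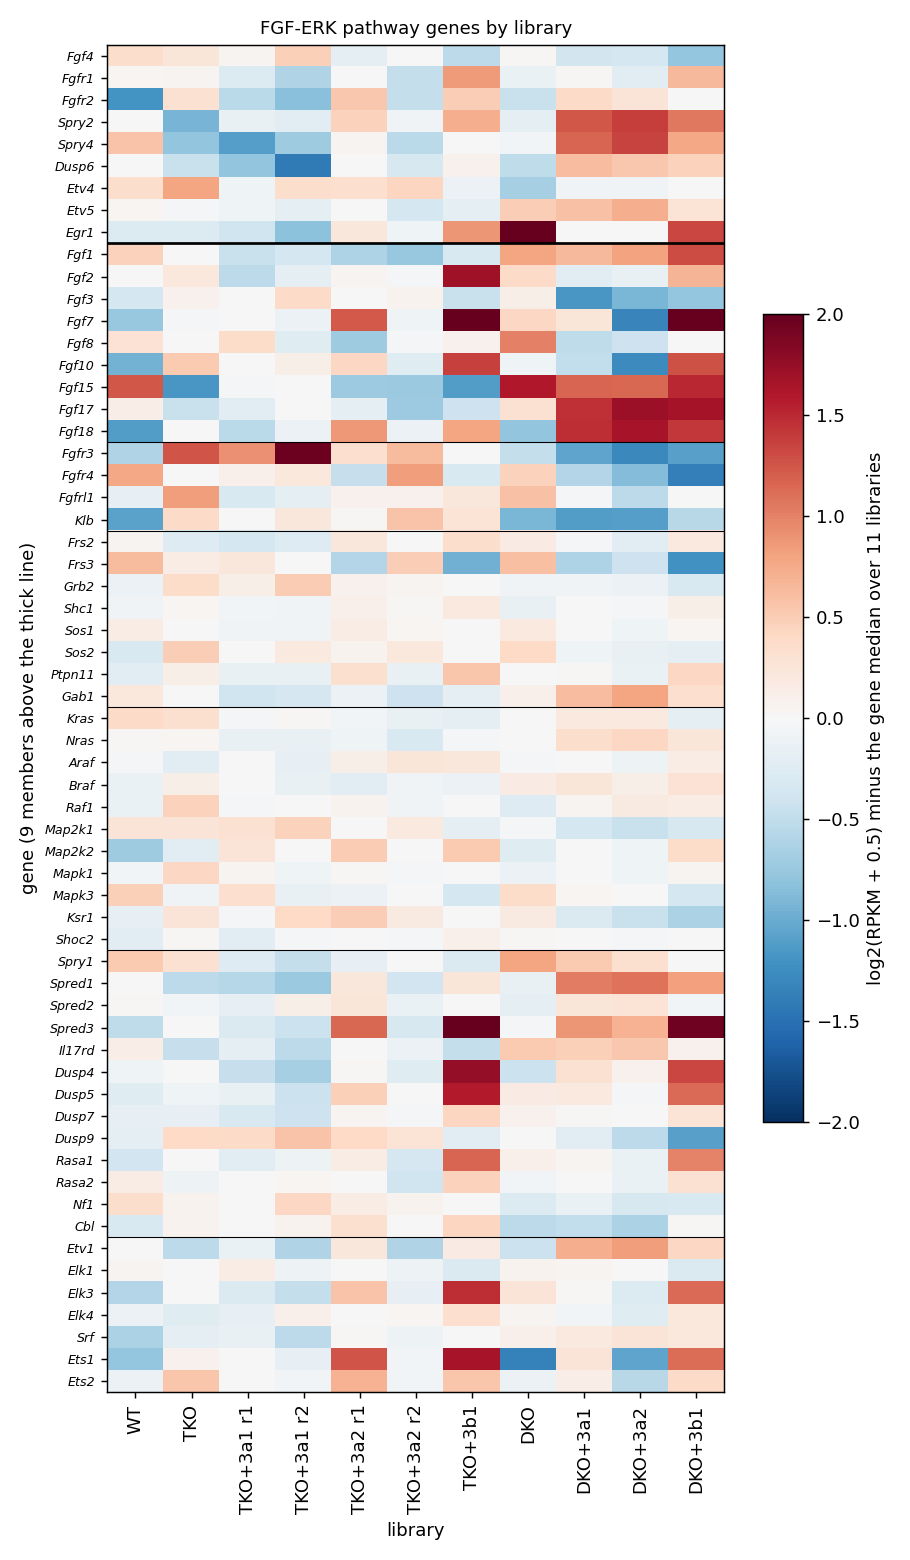
Heat map of log2(RPKM + 0.5) minus the gene's median over the 11 libraries (colour, limited to −2 to 2) for the 9 genes, above the thick line, and the pathway genes tested from the other lists except immediate early genes, below it, with libraries as columns. Spry2, Spry4, Dusp6, Spred1 and Fgf17 are red in the DKO add-back lines, and Fgf15 is red in WT and the DKO family.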

How the data were processed

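PolyA libraries were prepared with a TruSeq kit that does not mark strand, per the labels' protocols, so overlapping and antisense genes share reads. The submitters' processing notes name STAR 2.4.0, bcl2fastq 1.8.4 and build mm9. The deposited values are RPKM made by the authors. The counting tool and gene lengths are not given in the sources used here. The 11 libraries fell into 9 groups by the genotype label.

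RPKM was taken as log2(RPKM + 0.5) without scaling, which makes fold changes of low genes smaller, and tests covered the 14229 genes whose highest library reached 1 RPKM. Linear models were fitted with limma 3.58.1 (eBayes with a trend) in R 4.3.3, tested on simulated data, with 2-sided p-values and Benjamini-Hochberg adjustment over all tested genes. A gene was called at an adjusted p under 0.05. Comparisons with WT, of Dnmt3a1 with Dnmt3a2 and of add-backs within a family used 9 group means over 11 libraries (a library without a replicate was assumed to vary like the replicated lines). The other 3 used additive terms for family and add-back over the 10 libraries other than WT. Add-backs by family and their difference were added after the values were seen. Alternatives were the pseudocount, filter, scaling, chromosome medians, model and left-out libraries.

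The 9 genes and all lists were chosen with earlier results of these data known. The levels of all 9 are given for each library, but the text on a comparison does not always name all 9. Of the other pathway lists each called gene is named, and otherwise the largest rise and fall may be named. Marker lists are given as counts, medians and the top gene. Likeness names the 2 genes with the highest Pearson r. Promoters came from RefSeq (GRCm38.p6), and 14213 tested genes had a chromosome.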

Additional observations from a re-analysis of the deposited data

Results flagged for a closer look

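Etv4 was picked out because its add-back libraries lay on opposite sides of the parent in the 2 families. All 5 TKO add-back libraries (40.9 to 60.1 RPKM) were below TKO (76.6 RPKM), and all 3 DKO add-back libraries (42.0 to 44.3 RPKM) were above DKO (27.7 RPKM). Add-back libraries did not overlap their parent, in either direction, for 36.4% of all tested genes in TKO and 69.5% in DKO. The share of genes with opposite directions in the 2 families was not counted. WT was at 56.8 RPKM. The difference of the add-back changes, DKO minus TKO, was 1.27 ± 0.30 on the log2 scale and did not pass (limma, adjusted p = 0.351, unadjusted p = 0.00584). Over the 16 alternatives it ran from 1.08 to 1.34, with adjusted p-values from 0.247 to 0.696. Etv4 lies on chromosome 11, whose median was 0.52 higher in TKO than in WT, and with chromosome medians removed the difference was 1.08. Each family has 1 parent library, so that a deviation of that library and a difference between families cannot be told apart.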

How the results depend on the processing

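Over 55 member differences larger than their standard error and 882 alternative fits of them, 840 kept their direction and side of the threshold, 26 lost a call, 10 gained one and 6 turned direction. The cause was not tested. Etv4 in TKO against WT (0.43) came to −0.081 with chromosome medians removed and −0.059 in an additive model of all 11 libraries. Egr1 for any enzyme put back (−0.74) came to 0.40 without DKO and ran to −1.997 without TKO. For Dnmt3b1 against Dnmt3a, Spry2 (0.29) came to −0.16 without TKO+Dnmt3b1, 0.67 without DKO+Dnmt3b1 and −0.26 in the DKO family alone, where Dusp6 (0.37) came to −0.12. Grb2 between the families (0.32) came to −0.032 with chromosome medians removed. The 39 calls of other pathway genes were kept in 622 of 790 alternative fits, and 7 of them were lost in most of theirs.

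The number of members called for any enzyme put back (1) was 0 with no low-value filter, without both Dnmt3b1 libraries, with each line counted once and with 9 group means, and 0 to 2 with 1 library left out. For Dnmt3b1 against Dnmt3a (2) it was 1 with no low-value filter, 0 in the TKO family alone, 0 in the DKO family alone, and 0 to 3 with 1 library left out; with 9 group means it stayed at 2, with Egr1 in place of Fgf4. Between the families (3) it was 2 to 4. For add-backs in DKO (0) it was 1, Egr1, with a filter of 1 RPKM in at least 3 libraries and with chromosome medians removed. It stayed at 0 in the other comparisons under every alternative run.

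Counts over all genes moved more: over the alternatives 0 to 319 were called in TKO against WT (49), 0 to 71 in DKO against WT (0), 0 to 6 in Dnmt3a1 against Dnmt3a2 (1), 0 to 58, 0 to 129 and 0 to 66 in the add-backs in TKO, in DKO and their difference (0 each), 0 to 867 for any enzyme put back (559), 651 to 3245 between the families (2990) and 77 to 3515 for Dnmt3b1 against Dnmt3a (2943).

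Replicates 1 and 2 of TKO+Dnmt3a1 and TKO+Dnmt3a2 share only a number (r of their deviations 0.09 across genes, 2 pairs). With the replicate number as a block, 0 members and 6 of all genes were called between Dnmt3a1 and Dnmt3a2, against 0 and 1 without it. Depth limits Fgfr2 most, with a counting error of 7.22% at its fewest reads in WT. With 1 library in 7 of 9 groups, no comparison with WT or with a single parent has a replicate of its own.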

Other observations

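Among pathway genes outside the 9, the DKO add-back lines stood away from DKO in several ligands and immediate early genes, none of them called. Such separation is common here: the add-back libraries did not overlap DKO for 69.5% of all tested genes. In limma 3518 of the 14229 genes tested had an unadjusted p under 0.05. Fgf17, a ligand of the Fgf8 group, was at 16.4, 19.5 and 18.8 RPKM in DKO+Dnmt3a1, DKO+Dnmt3a2 and DKO+Dnmt3b1, against 7.10 in DKO, 6.21 in WT and 3.19 to 5.62 in the TKO family. Fgf18 was at 3.23 to 3.88 RPKM in these lines against 0.31 in DKO (2.31 ± 0.44, limma, adjusted p = 0.0947). Myc, an immediate early and growth gene, was at 32.2 to 60.0 RPKM against 5.22 in DKO (2.89 ± 0.53, adjusted p = 0.0919 in limma), and at 56.9 RPKM in TKO+Dnmt3b1. Fos was at 1.72 to 5.20 RPKM in the DKO add-back lines against 20.5 in DKO (−2.73 ± 0.26, adjusted p = 0.0778 in limma). Fgf8 had the largest fall of the ligands (−1.31 ± 0.40, adjusted p = 0.142 in limma). Fgf17 was chosen after its values were seen. The other genes named here have the largest rise or fall of their lists in this comparison.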
